A study of Mus musculus with 12 samples.

Results

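The TNF ligand and receptor superfamilies were examined in RNA from tongue epithelium. The mice, all Langerin-DTR, make a receptor for diphtheria toxin in cells that express langerin, so that the toxin removes those cells, which in this epithelium are Langerhans cells. Members were taken by symbol: every gene named Tnfsf or Tnfrsf with a number, and Tnf, Lta, Ltb, Ltbr, Cd40, Cd27, Fas, Fasl, Eda, Edar and Eda2r. This gave 43 of the 55414 genes in the count table, 16 of them ligands, 26 receptors and 1 an antisense transcript, Tnfsf13os, that the symbol rule takes in although it encodes no ligand. The rule leaves out Ngfr, Relt, Cd70 and Cd40lg, which belong to the same families under other names. One group of mice received the toxin (DT, 6 samples) and the other phosphate-buffered saline (PBS, 6 samples), 2 times per week from 2 weeks of age to adulthood; both groups carried Langerin-DTR. Background strain and exact adult age are unknown here. The labels do not say for each sample that it came from a separate mouse, and if it did not, p-values measure only the spread between samples. Because whole epithelium was sequenced, fewer cells of a type and less RNA per cell cannot be told apart. No group without the receptor received the toxin, so loss of the cells and exposure to the toxin cannot be told apart either.

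TNF family ligands are trimers, most of them anchored in the cell membrane, that cluster their receptors on a neighbouring cell. Receptors with a death domain, such as those encoded by Tnfrsf1a, Fas and Tnfrsf10b, can assemble caspase-activating complexes. Others bind TRAF adaptors and release NF-kappaB, a transcription factor that controls inflammatory and survival genes. In skin and oral epithelium the ectodysplasin branch (Eda with Edar) patterns hair, teeth and papillae, and the RANK branch (Tnfsf11 with Tnfrsf11a) is known for its part in Langerhans cell maintenance.

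Total counts per sample were 26181070 to 34333949 in DT and 21226436 to 30282813 in PBS, so that the DT libraries were on the whole deeper. A floor of 3 counts corresponded to 0.0813 to 0.116 CPM (counts per TMM-scaled library size, the unit of all levels below) in DT samples and 0.102 to 0.143 CPM in PBS samples; this covers counting error only. Cd207, which encodes langerin, had 4 counts over the DT samples against 429 over the PBS samples, and so went with the labels. The keratins and Trp63 that mark tongue keratinocytes were all abundant, at a summed 97458 to 123073 CPM in DT and 117506 to 138691 CPM in PBS. On the first principal component, DT 1, DT 2, DT 3, PBS 5 and PBS 6 stood apart from the other 7 samples, an axis that held 26.6% of the variance.

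All 43 members had counts entered and at least 2 counts over the 12 samples. A member was called detected in a group when at least 3 of its 6 samples held at least 3 counts. By this rule 33 members were detected in DT and 32 in PBS, while 9 were detected in neither group. Of the receptors 21 were detected in DT and 19 in PBS, and of the ligands 11 in DT and 12 in PBS. Cd40 and Tnfrsf9 were detected in DT but not in PBS, and Tnfsf10 in PBS but not in DT, but these rest on a few counts in libraries of unequal depth. The filter for the test across all genes kept 22 members: 17 receptors, 4 ligands and the antisense transcript. The remaining 21, of which 12 were ligands, had 2 to 113 counts over all samples.

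Receptor transcripts made up nearly all of the family's RNA. They took 96.4% of the family's 48568 counts in DT and 96.3% of its 40877 counts in PBS, and ligands took 2.69% in DT and 2.87% in PBS. Tnfrsf1a alone accounted for 54.0% of the family's counts in DT and 55.8% in PBS. Levels of different genes were compared per kilobase of annotated exon. On that scale Tnfrsf1a stood at 54.4 ± 5.70 CPM per kb in DT and 57.2 ± 4.31 in PBS (SD, n = 6 each), followed by Ltbr at 16.7 ± 0.966 in DT and 15.9 ± 1.35 in PBS. Next came Tnfrsf19 at 6.60 ± 0.707 CPM per kb in DT and 6.75 ± 0.853 in PBS, and then Tnfrsf12a at 4.13 ± 0.762 in DT and 3.87 ± 0.573 in PBS. These 4 receptors kept this order in every sample of both groups, with no overlap between neighbours or with Tnfrsf21, the fifth. From Tnfrsf21 down to Tnfsf4 neighbouring genes overlapped: Tnfrsf21 had 2.17 ± 0.258 CPM per kb in DT and 2.008 ± 0.226 in PBS, and Tnfsf4, the most abundant ligand, had 1.52 ± 0.340 in DT and 1.77 ± 0.307 in PBS.

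**Figure D1:**
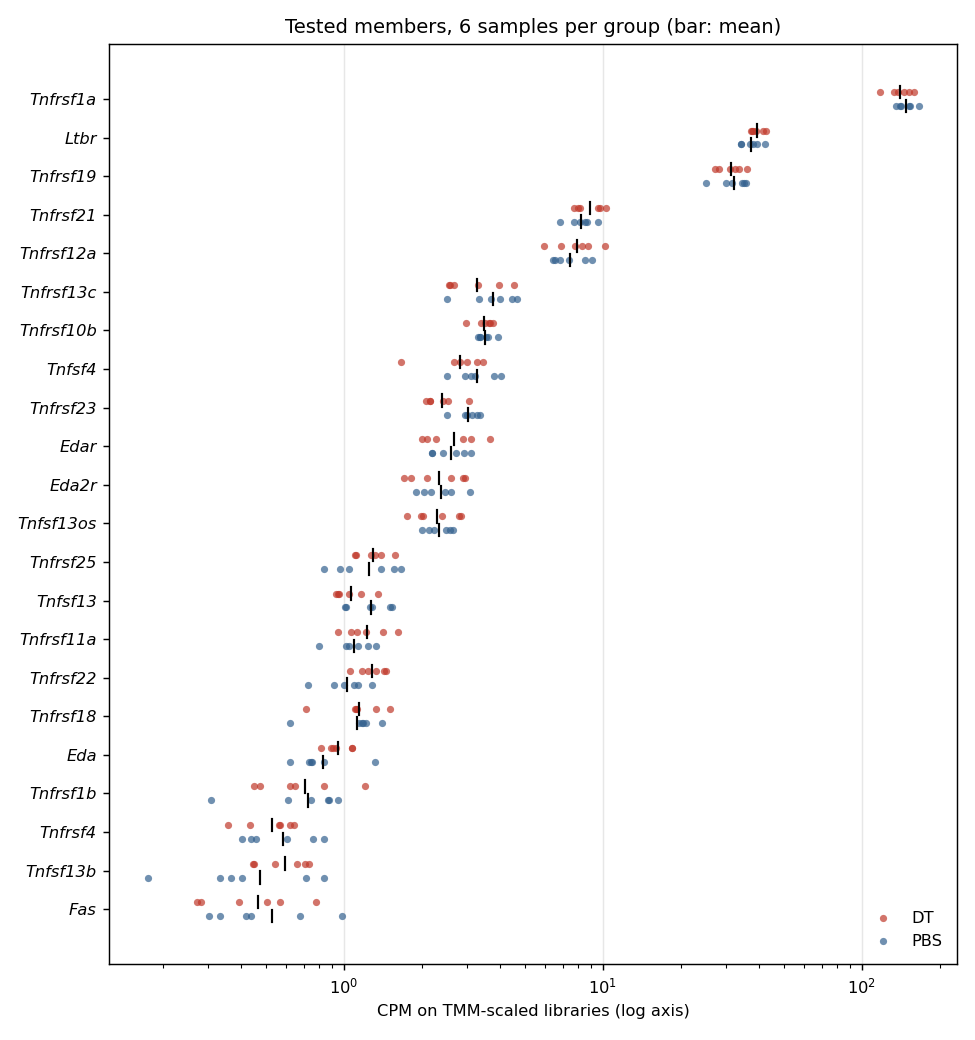
Level of the 22 tested members in each sample, in CPM on TMM-scaled libraries (log axis), with DT samples drawn above PBS samples and a bar at each group mean. Tnfrsf1a lies at 118 to 159 CPM in DT and 136 to 166 CPM in PBS, far above Fas at 0.271 to 0.782 CPM in DT and 0.302 to 0.987 CPM in PBS, and DT and PBS samples overlap for every gene.

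DT was compared with PBS to ask whether removal of langerin-expressing cells went with a difference in these ligands and receptors. By edgeR's quasi-likelihood test, adjusted over all 14231 genes tested, 0 of the 22 tested members passed the threshold of 0.05. Across all genes 1.3% passed, 0.443% higher and 0.857% lower in DT. DESeq2, by which 4.1% of all genes passed, and limma-voom also called 0 members. An unadjusted p under 0.05 was found for 1 member, Tnfrsf23, which is 4.55% of the 22 against 15.4% of all genes tested, and by DESeq2 and limma-voom it was again Tnfrsf23 alone. The groups did not overlap for 0 of the 22 members, against 2.21% of all genes. Fold changes were positive for 10 members and negative for 12, against 51.6% positive over all genes, with a median log2 fold change of -0.01, against 0.01 over all genes. The 95% intervals bound what could have gone unseen. They lay between -0.5 and 0.5 on the log2 scale for 11 members and between -1 and 1 for all 22 tested members, and were narrowest for Ltbr (-0.07 to 0.20) and widest for Fas (-0.91 to 0.48).

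**Figure D2:**
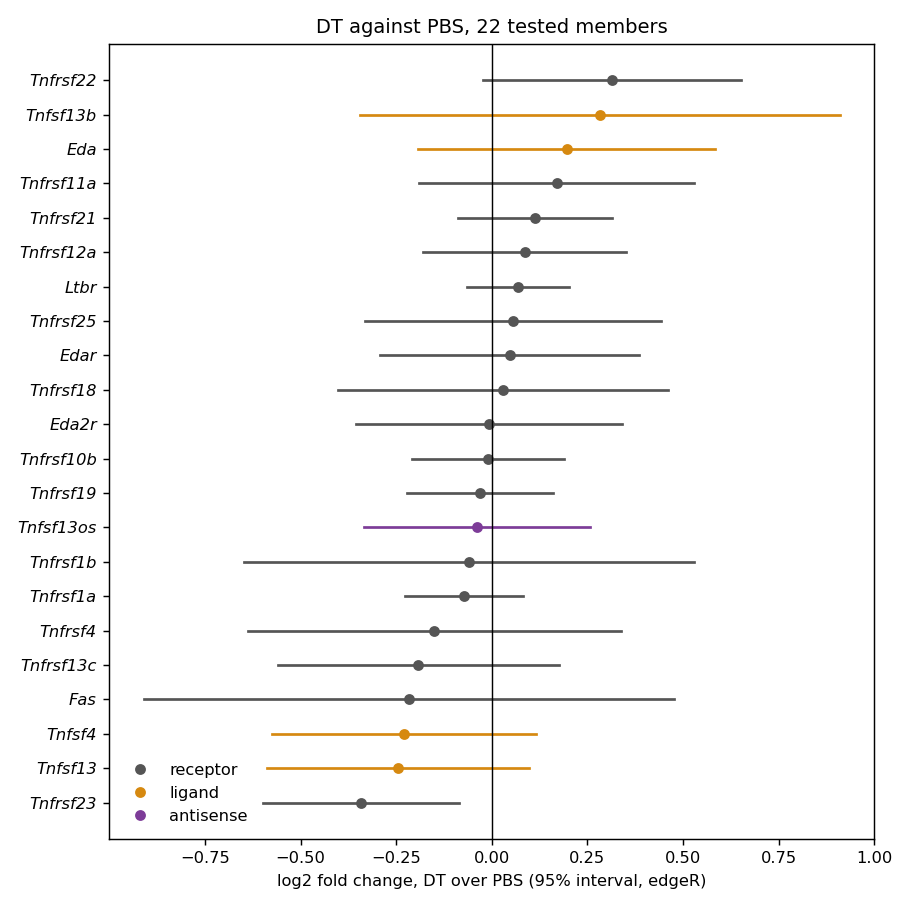
Log2 fold change of DT over PBS with its 95% interval from edgeR for the 22 tested members, ordered from positive to negative and coloured by kind. The interval includes 0 for 21 members, the exception being Tnfrsf23 at -0.34, whose adjusted p of 0.182 misses the threshold.

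Of the receptors for TNF itself, one was the most abundant member of the family and the other was scarce. Tnfrsf1a (ENSMUSG00000030341), the widely expressed death-domain receptor for TNF, had a lowest, median and highest level of 118, 142 and 159 CPM in DT, against 136, 147 and 166 CPM in PBS. The groups overlapped over most of their range, and DT 6 was lowest. DT differed from PBS by -0.07 ± 0.07 (SE) on the log2 scale, with a 95% interval of -0.23 to 0.08 (edgeR adjusted p = 0.694). Tnfrsf1b, the second TNF receptor, found mainly on immune and endothelial cells, was much scarcer, at 0.708 ± 0.282 CPM in DT and 0.727 ± 0.238 CPM in PBS (-0.06, edgeR adjusted p = 0.952). The ligands of these receptors were at the edge of detection. Tnf had 24 counts over the 6 DT samples, 1 to 7 in each, and 25 over the 6 PBS samples, 2 to 7 in each. Lta, the secreted lymphotoxin, had 9 counts in DT and 5 in PBS, with at most 2 in any DT sample and 4 in PBS 3. At such counts only a large difference could have been seen, and neither gene passed the filter for the test.

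Ltbr, the lymphotoxin beta receptor, which drives the alternative NF-kappaB pathway, ranged from 37.4 to 42.8 CPM in DT with a median of 38.5, against 34.0 to 42.3 CPM in PBS with a median of 37.6. The difference came to 0.07 ± 0.06 (SE) on the log2 scale, inside an interval of -0.07 to 0.20 (edgeR adjusted p = 0.663). PBS 1 and PBS 2 were lowest, and PBS 5 lay as high as the highest DT sample, DT 1, to within 1 CPM. With no scaling factor, under which the median of all genes lay at 0.11, Ltbr stood at 0.17 (edgeR adjusted p = 0.0754). Ltb, the ligand that anchors lymphotoxin to the membrane, had 40 counts in DT, 3 to 9 per sample, and 33 in PBS, 0 to 12 per sample. Tnfsf14 (LIGHT), a further ligand of Ltbr, had 14 counts in DT and 11 in PBS, and Tnfrsf14, the other receptor of LIGHT, had 53 in DT and 39 in PBS. Reads of this branch therefore came almost only from the receptor Ltbr.

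Tnfrsf19, Tnfrsf12a and Tnfrsf21 followed in abundance. Tnfrsf19 (TROY), a receptor without a death domain that is expressed in epithelial and hair follicle stem cells, measured 27.0, 31.6 and 35.9 CPM (lowest, median, highest) in DT and 25.1, 33.1 and 35.7 CPM in PBS. The ranges nearly coincided (log2 fold change -0.03, interval -0.22 to 0.16, edgeR adjusted p = 0.914). Tnfrsf12a (Fn14), the receptor for TWEAK, is induced by tissue injury and growth factors. It spanned 5.93 to 10.2 CPM in DT (median 8.04) and 6.42 to 9.06 CPM in PBS (median 7.12), and the DT samples held both the lowest and the highest value (0.09, interval -0.18 to 0.35, edgeR adjusted p = 0.802). Tnfrsf21 (death receptor 6) spanned 7.77 to 10.3 CPM in DT (median 8.84) and 6.84 to 9.59 CPM in PBS (median 8.33), with a log2 fold change of 0.11 (interval -0.09 to 0.31, edgeR adjusted p = 0.625). TWEAK itself, Tnfsf12, was too low to test, with 34 counts in DT and 45 in PBS. All DT samples of Tnfsf12 (0.107 to 0.210 CPM) lay under the PBS median of 0.287 CPM, although PBS samples reached down to 0.115 CPM. The two-sided exact permutation test of its CPM gave p = 0.0498, unadjusted and the lowest of the 21 untested members. In the annotation at hand 48.3% of its exon bases are shared with Tnfsfm13, a read-through transcript on the same strand, so its counts are uncertain.

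Among death receptors, Tnfrsf10b (the mouse receptor for TRAIL) stood at 3.49 ± 0.288 CPM in DT and 3.52 ± 0.242 CPM in PBS, with one of the narrower intervals of the family (-0.01, interval -0.21 to 0.19, edgeR adjusted p = 0.978). Its ligand Tnfsf10 had 12 counts in DT and 17 in PBS. Fas, which triggers apoptosis when bound by Fas ligand, was low, at 0.271, 0.450 and 0.782 CPM (lowest, median, highest) in DT and 0.302, 0.430 and 0.987 CPM in PBS. The groups overlapped almost fully, DT 1 and PBS 4 being highest in theirs (-0.22, interval -0.91 to 0.48, edgeR adjusted p = 0.816), and without PBS 4 the fold change was 0.07. Fasl had 6 counts in DT and 1 in PBS. Tnfrsf25 (death receptor 3) measured 1.10 to 1.58 CPM in DT and 0.841 to 1.66 CPM in PBS (0.06, edgeR adjusted p = 0.924), and Tnfsf15, its ligand, had 38 counts in DT and 26 in PBS.

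Tnfrsf22 and Tnfrsf23, a pair of neighbouring mouse genes on chromosome 7 for TRAIL decoy receptors that lack a death domain, gave the smallest p-values of the family, with fold changes of opposite sign. They are close copies, so their sequences are shown to let the reader judge how reads could be assigned. In the GENCODE M21 transcripts (GRCm38; the counts were made on GRCm39) their coding sequences are identical at 479 of 528 aligned bases (90.7%). The longest stretch without a difference is 102 bases, bases 391 to 492 of the Tnfrsf23 coding sequence and 421 to 522 of that of Tnfrsf22, on the minus strand:
Tnfrsf23 and Tnfrsf22, shared: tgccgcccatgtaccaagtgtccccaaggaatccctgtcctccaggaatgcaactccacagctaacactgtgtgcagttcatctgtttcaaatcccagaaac
The ungapped 60-base window with the most differences holds 10, which are in capitals:
Tnfrsf23, bases 60 to 119: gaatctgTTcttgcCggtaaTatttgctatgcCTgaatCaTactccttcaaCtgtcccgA
Tnfrsf22, bases 90 to 149: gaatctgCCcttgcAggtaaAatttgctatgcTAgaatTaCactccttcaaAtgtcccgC
Over whole transcripts 18% of the distinct 50-base words of Tnfrsf23 also occur in Tnfrsf22, and 0 of them in Tnfrsf26, the third gene of the cluster, whose coding sequence is 58.4% identical to that of Tnfrsf23 over 488 aligned bases. Reads from the shared stretches could be lost or given to either gene, so the values of both genes are uncertain.

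Tnfrsf23 (ENSMUSG00000037613) measured 2.42, 3.05, 2.52, 2.15, 2.15 and 2.09 CPM in DT 1 to DT 6, against 3.28, 2.98, 2.49, 2.93, 3.36 and 3.12 CPM in PBS 1 to PBS 6. In 5 of the 6 DT samples the level lay below the PBS median of 3.05 CPM, but DT 2 and DT 3 stood inside the PBS range. The fitted difference was -0.34 ± 0.12 (SE) on the log2 scale with an interval of -0.60 to -0.09 (edgeR unadjusted p = 0.0121, adjusted p = 0.182). Tnfrsf22 (ENSMUSG00000010751) was at 1.17, 1.33, 1.43, 1.24, 1.46 and 1.06 CPM in DT 1 to DT 6, against 0.998, 1.14, 1.10, 0.914, 0.726 and 1.29 CPM in PBS 1 to PBS 6. All 6 DT samples lay above the PBS median of 1.05 CPM, and PBS 2, PBS 3 and PBS 6 lay inside the DT range (0.31 ± 0.16 SE; interval -0.02 to 0.65; edgeR adjusted p = 0.367). Added together the pair came to 3.68 ± 0.437 CPM in DT and 4.05 ± 0.297 CPM in PBS, and their ratio, Tnfrsf23 over Tnfrsf22, ran from 1.47 to 2.29 in DT and from 2.28 to 4.63 in PBS. The sum and the ratio were chosen after the values were seen and are given as a description. Tnfrsf26 had 4 counts in each group.

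**Figure D3:**
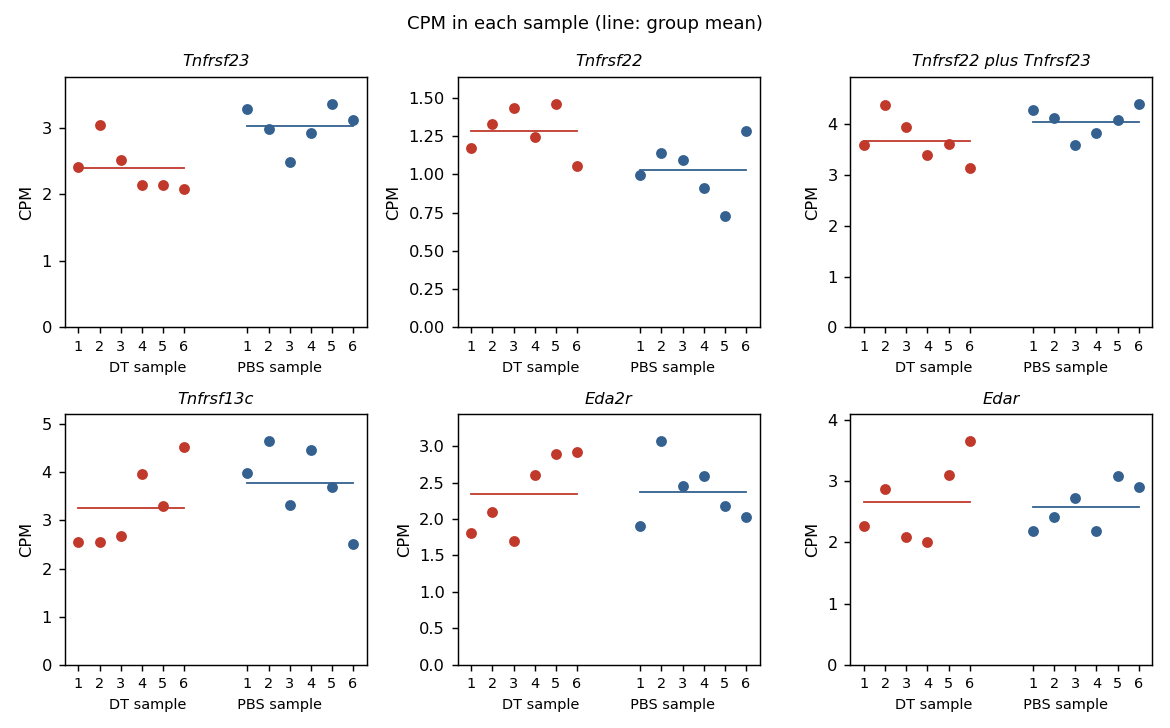
CPM in each sample of Tnfrsf23, Tnfrsf22, their sum, Tnfrsf13c, Eda2r and Edar, with DT samples 1 to 6 on the left, PBS samples 1 to 6 on the right, and a line at each group mean. Tnfrsf23 averages 2.39 CPM in DT and 3.03 CPM in PBS and Tnfrsf22 1.28 CPM in DT and 1.03 CPM in PBS, and for Tnfrsf13c and Eda2r the samples DT 4, DT 5 and DT 6 lie above DT 1, DT 2 and DT 3.

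The ectodysplasin branch was present on both sides of the signal. Eda, the ligand, measured 0.818, 0.921 and 1.07 CPM (lowest, median, highest) in DT and 0.618, 0.751 and 1.32 CPM in PBS. All 6 DT samples lay above the PBS median, but the highest level of all was in PBS 2 (0.20, interval -0.19 to 0.58, edgeR adjusted p = 0.667). Without PBS 2 the log2 fold change was 0.37 (edgeR unadjusted p = 0.0406, adjusted p = 0.353). Edar, the receptor of the A1 form of ectodysplasin, ranged from 2.007 to 3.66 CPM in DT (median 2.58) and from 2.19 to 3.10 CPM in PBS (median 2.57), with a log2 fold change of 0.05 (edgeR adjusted p = 0.928). Its adaptor Edaradd stood at 14.4 ± 2.98 CPM in DT and 14.4 ± 2.42 CPM in PBS (0.01, edgeR adjusted p = 0.990). Eda2r, the receptor of the A2 form, was at 1.81, 2.104, 1.70, 2.60, 2.89 and 2.93 CPM in DT 1 to DT 6, and from 1.90 to 3.07 CPM in PBS (median 2.32). The spread within DT was wider than the difference between the groups (-0.01, interval -0.35 to 0.34, edgeR adjusted p = 0.991). DT 1, DT 2 and DT 3, the samples low in Eda2r within DT, are the DT samples that stood apart on the first principal component. PBS 5 and PBS 6, which also stood apart, had Eda2r at 2.18 and 2.03 CPM, and PBS 1 lay lower at 1.90 CPM. The split within DT was not particular to Eda2r. Tnfrsf19 was also lower in DT 1 to DT 3 (27.0 to 30.9 CPM) than in DT 4 to DT 6 (32.4 to 35.9 CPM). Tnfrsf1a (145 to 159 against 118 to 138 CPM) and Ltbr (39.1 to 42.8 against 37.4 to 37.9 CPM) were higher in DT 1 to DT 3. These genes were singled out after their values were seen, and the first principal component was computed from the same data. How many members split in this way was not counted.

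The receptors and ligands of B cell survival were measured mainly through Tnfrsf13c. This receptor for BAFF was at 2.56, 2.56, 2.67, 3.96, 3.31 and 4.52 CPM in DT 1 to DT 6, and from 2.51 to 4.65 CPM in PBS (median 3.85). As with Eda2r, DT 1 to DT 3 lay below DT 4 to DT 6, and in PBS the lowest was PBS 6 (-0.19, interval -0.56 to 0.18, edgeR adjusted p = 0.655). With the first principal component of the within-group deviations as a covariate its adjusted p was 0.284. Of the B and plasma cell markers, Cd79a, Cd79b, Ms4a1 and Jchain were scarce, with 7 to 13 counts each over the DT samples and 3 to 9 over the PBS samples, and none of these 4 was at 0 in a whole group. Their part in the Tnfrsf13c level was not tested. Tnfrsf13b (TACI), which binds BAFF and APRIL, had 55 counts in DT and 34 in PBS, and Tnfrsf17 (BCMA), a plasma cell receptor, 1 in each group.

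BAFF itself, Tnfsf13b, a myeloid cytokine, ranged from 0.447 to 0.736 CPM in DT (median 0.600) and from 0.175 to 0.841 CPM in PBS (median 0.386). All 6 DT samples exceeded the PBS median, but PBS 3 and PBS 5 lay at the top with them (0.28, interval -0.34 to 0.91, edgeR adjusted p = 0.708). Tnfsf13 (APRIL) spanned 0.933 to 1.35 CPM in DT (median 1.00) and 1.01 to 1.54 CPM in PBS (median 1.27). Here 5 of 6 DT samples lay below the PBS median (-0.24, interval -0.59 to 0.10, edgeR adjusted p = 0.506). Tnfsf13os, transcribed against it, stood at 2.29 ± 0.442 CPM in DT and 2.34 ± 0.254 CPM in PBS (-0.04, edgeR adjusted p = 0.930). In the annotation 60% of the exon bases of Tnfsf13 are shared with the read-through transcript Tnfsfm13 and 13.5% with Tnfsf13os on the opposite strand. With the strand setting of the counting not given, these reads may be lost or shared. Tnfsf12 also shares exons with Tnfsfm13. Added together, Tnfsf12 and Tnfsf13 came to 1.25 ± 0.169 CPM in DT and 1.56 ± 0.272 CPM in PBS. The groups overlapped, at 1.07 to 1.52 CPM in DT and 1.29 to 1.97 CPM in PBS. Like the sum of Tnfrsf22 and Tnfrsf23, this sum was formed with the values of its parts known. It is given as a description only, without a test. Macrophage markers are given here because BAFF and APRIL are made by myeloid cells. The 7 markers summed to 16.8 to 25.8 CPM in DT and 24.0 to 29.0 CPM in PBS. Most of this was Cd68 (mean 11.4 CPM in DT and 13.6 in PBS) and Csf1r (7.74 in DT and 9.58 in PBS). Of the 6 tested none passed the threshold. Their fold changes were negative for 5 and positive for 1, C1qb (0.34). The part of macrophages in the BAFF and APRIL levels was not tested.

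Costimulatory members, which act between antigen-presenting cells and T cells, were low with 1 exception. Tnfsf4 (OX40 ligand), the exception, measured 1.67, 2.89 and 3.44 CPM (lowest, median, highest) in DT and 2.50, 3.16 and 4.03 CPM in PBS. DT 4 was the lowest of all 12 samples, and the other DT samples lay within the PBS range (-0.23 ± 0.16 SE; interval -0.58 to 0.12; edgeR adjusted p = 0.542). Tnfrsf4 (OX40), its receptor, was at 0.530 ± 0.111 CPM in DT and 0.585 ± 0.182 CPM in PBS (-0.15, edgeR adjusted p = 0.818), and Tnfrsf18 (GITR) at 1.15 ± 0.266 CPM in DT and 1.13 ± 0.263 CPM in PBS (0.03, edgeR adjusted p = 0.968). In the annotation 27.2% of the exon bases of Tnfrsf18 are shared with Gm16008 on the opposite strand. With the strand setting not given, its level is uncertain. T cell transcripts were of the same low order, Cd3e averaging 0.419 CPM in DT and 0.288 CPM in PBS and Cd3g 0.458 CPM in DT and 0.388 CPM in PBS. The 7 T cell markers together came to 29.9 to 35.5 CPM in DT and 29.0 to 33.6 CPM in PBS, most of it Cd5 and Thy1, with none at 0 in a whole group. The part of T cells in these levels was not tested.

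Members of this class below the filter were Cd40, Cd27, Tnfsf8, Tnfrsf8, Tnfsf9, Tnfrsf9 and Tnfsf18. Cd40, by which T cells activate antigen-presenting cells, had 6, 2, 5, 3, 2 and 4 counts in DT 1 to DT 6 and 4, 0, 1, 6, 2 and 2 in PBS 1 to PBS 6. Cd27, a receptor of T and B memory cells, had 14 counts in DT and 17 in PBS, of which 9 were in PBS 3. For Cd40 and Cd27 the groups overlapped. Tnfrsf9 (4-1BB), an activation marker of T cells, had 5, 6, 3, 1, 4 and 5 counts in the DT samples and 2, 0, 6, 1, 0 and 0 in the PBS samples. Its 24 counts in DT against 9 in PBS gave an exact permutation p of 0.123 on CPM (two-sided, n = 6 each), which does not settle whether the groups differ. All 6 DT samples lay above the PBS median of 0.0183 CPM, itself below the 3-count floor, but the highest level, 0.227 CPM, was in PBS 3. The ligand of 4-1BB, Tnfsf9, had 55 counts in DT and 58 in PBS, and 14.9% of its exon bases are shared with Gm11110 on the opposite strand. Tnfsf18 (GITR ligand) had 29 in DT and 19 in PBS, Tnfsf8 (CD30 ligand) 34 in DT and 30 in PBS, and Tnfrsf8 (CD30) 6 in DT and 11 in PBS.

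**Figure D4:**
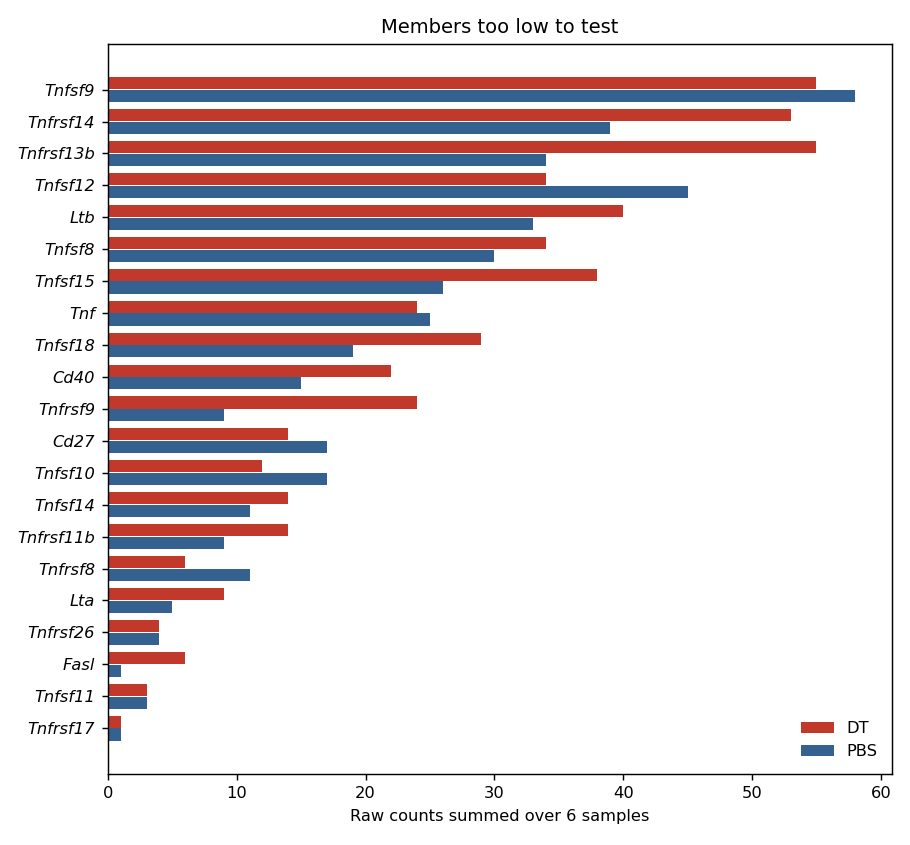
Raw counts summed over the 6 samples of each group for the 21 members below the filter, with the DT bar above the PBS bar. The highest, Tnfsf9, has 55 counts in DT and 58 in PBS and the lowest, Tnfrsf17, 1 in each group; DT libraries were deeper, so equal counts are not equal levels.

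The RANK branch, through which Tnfsf11 acts on Tnfrsf11a, was represented by its receptor. Tnfrsf11a (RANK) measured 0.955, 1.17 and 1.63 CPM (lowest, median, highest) in DT and 0.803, 1.10 and 1.33 CPM in PBS, with 4 of 6 DT samples above the PBS median (0.17, interval -0.19 to 0.53, edgeR adjusted p = 0.692). Cd207 in the same samples averaged 0.0189 CPM in DT and 2.80 CPM in PBS. Tnfsf11 (RANKL) had 3 counts in each group and did not reach 3 counts in any sample. The soluble decoy Tnfrsf11b (osteoprotegerin) had 14 counts in DT and 9 in PBS, of which PBS 4 held 6.

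Genes through which these receptors signal were likewise without a call by edgeR. Of 35 adaptor and death signalling genes, all tested, 0 passed; 3 had an unadjusted p under 0.05 (8.57%, against 15.4% of all genes), and 17 fold changes were positive and 18 negative (median -0.00, against 0.01 for all genes). Tab2, which couples TRAF complexes to the TAK1 kinase, was at 180 ± 7.95 CPM in DT and 207 ± 13.3 CPM in PBS (-0.20, edgeR adjusted p = 0.0848; DESeq2 adjusted p = 0.00845). Tnip1, a partner of the inhibitor A20, was at 41.9 ± 4.20 CPM in DT and 49.6 ± 3.88 CPM in PBS (-0.25, edgeR adjusted p = 0.104; DESeq2 adjusted p = 0.0427). DESeq2 thus called 2 of the 35 genes (5.71%, against 4.1% of all genes), both lower in DT, and limma-voom called 0.

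NF-kappaB subunits and inhibitors (14 tested) and NF-kappaB target genes (15 of 24 tested) also had 0 members past the threshold by edgeR, DESeq2 or limma-voom, with 2 in each list at an unadjusted edgeR p under 0.05 (14.3% and 13.3% of those tested, against 15.4% of all genes). Both lists had 9 negative fold changes and a median of -0.02. Nfkbia, the inhibitor that NF-kappaB itself induces and a gene of both lists, averaged 87.3 ± 6.85 CPM in DT and 98.2 ± 5.64 CPM in PBS (-0.17, edgeR adjusted p = 0.182). Nfkbib, a related inhibitor, averaged 30.3 ± 2.85 CPM in DT and 34.1 ± 1.81 CPM in PBS (-0.17, edgeR adjusted p = 0.210). In the other direction, Icam1, an adhesion molecule induced by TNF, stood at 9.39 ± 0.704 CPM in DT and 7.93 ± 1.14 CPM in PBS (0.24, edgeR adjusted p = 0.219). Of the target genes below the filter Il6 had 0 counts in all samples, which allows up to the floor of 3 counts per library.

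Ngfr, the neurotrophin receptor and the tested one of the 4 family members outside the symbol rule, averaged 7.43 ± 0.623 CPM in DT and 6.22 ± 0.614 CPM in PBS (0.26, edgeR adjusted p = 0.149). Relt had 30 counts in DT and 21 in PBS, Cd40lg 1 in each group, and Cd70 0 in both.

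**Figure D5:**
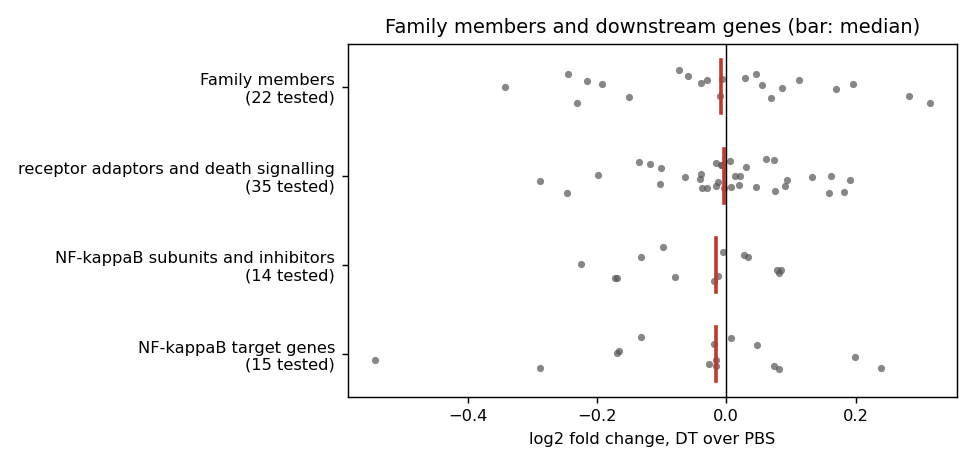
Log2 fold change of DT over PBS for each tested gene of the family and of 3 lists of downstream genes (points spread vertically for legibility), with a bar at the median of each. The medians, -0.01, -0.00, -0.02 and -0.02 from top to bottom, all lie next to 0.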

How the data were processed

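For every sample the table deposited by the authors lists raw counts beside normalized values. The submitters' processing notes name cutadapt 2.10, TopHat2 2.1.1, HTSeq 2.01, DESeq2 1.36.0 and build GRCm39; for annotation and strand setting nothing is recorded. The deposited normalized signal equals the count over a size factor per sample and served only as a check. Of 55414 genes, 6250 had blank counts, none of them a member, and were left out. The count model was edgeR 4.0.16 under R 4.3.3: filterByExpr (minimum count 10; 14231 genes kept), TMM scaling, quasi-likelihood F test of DT against PBS without covariate, Benjamini-Hochberg adjustment over all genes. The script was tested on simulated data. DESeq2 1.42.0 and limma-voom (limma 3.58.1) were alternatives, as were other scalings, filters, covariates and leaving out samples. CPM are on TMM-scaled libraries; exon lengths, overlaps and transcripts are from GENCODE M21 (GRCm38), so no coordinates are given. Replicates were not repeats of a library (chi-square per degree of freedom 6.81 to 61.7). Exact permutation tests were two-sided, with 0.00216 as the smallest possible p. Named in full were the 12 tested members with the smallest p, the 6 most abundant, and a fixed set around Tnf, Fas, Cd40, Cd27, Eda and Tnfsf11; others are given more briefly. Members, lists and tests were chosen with earlier results of these data known. One marker gene is not reported here.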

Additional observations from a re-analysis of the deposited data

Results flagged for a closer look

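In 2 of the 44 groups of 6 samples formed by the 22 tested members, 1 sample stood far from the others, a number that chance alone gives about as often (5% of groups). Eda measured 1.32 CPM in PBS 2, the next PBS sample being at 0.841 CPM, and without PBS 2 its log2 fold change was 0.37 in place of 0.20 (edgeR adjusted p = 0.353). Tnfrsf18 measured 0.622 CPM in PBS 4, with the next lowest PBS sample at 1.15 CPM.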

How the results depend on the processing

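No member passed the threshold under any alternative, the lowest adjusted p being 0.0613 (Tnfrsf23, residual first principal component as covariate; range for that gene up to 0.385); 12 members kept their direction throughout and 10 did not. The count of calls over all genes, 185, moved to 553 with library size alone, 583 by DESeq2, 1257 with the principal component covariate, 8 with the replicate block and 1120 without the 5 samples that stand apart (an alternative chosen after the data were seen), and ran from 46 (without DT 5) to 263 (without DT 1) when 1 sample was left out. The other libraries whose removal moved it by over 1.5 times were DT 2, DT 3, DT 4, DT 6, PBS 1, PBS 2, PBS 3 and PBS 4, with 102, 72, 77, 114, 97, 56, 67 and 115 calls. With no scaling factor 87.5% of the calls were higher in DT, against 34.1%, and 47.9% with upper quartile scaling. The labels do not say that same-numbered samples are pairs, and they were not treated as such. Their deviations correlated at -0.325 to 0.107, which does not settle whether they were. The fold changes that changed sign, none of them called, were as follows. Upper quartile scaling gave Eda2r 0.012 and Tnfrsf10b 0.010. Library size alone gave Eda2r 0.11, Tnfrsf10b 0.094, Tnfrsf19 0.081, Tnfrsf1a 0.029, Tnfrsf1b 0.038 and Tnfsf13os 0.061. Without a filter Eda2r was at 8.48e-05. Without the 5 samples Eda2r stood at 0.16, Tnfrsf18 at -0.038, Tnfrsf19 at 0.17 and Tnfrsf25 at -0.052. Leaving out 1 sample gave ranges of -0.082 to 0.080 for Eda2r, -0.069 to 0.12 for Edar, -0.41 to 0.069 for Fas, -0.033 to 0.037 for Tnfrsf10b, -0.094 to 0.14 for Tnfrsf18, -0.086 to 0.013 for Tnfrsf19, -0.27 to 0.049 for Tnfrsf1b, -0.032 to 0.15 for Tnfrsf25 and -0.10 to 0.028 for Tnfsf13os. The cause was not tested. Depth limits the 21 members below the filter, for which only large differences could have been seen.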
